A study of Mus musculus with 4 samples.

Results

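The histone mark H3K27me3 was followed at 41 autosomal genes whose products act in germ cells, in mouse embryonic fibroblasts deficient for SmcHD1 and in wild-type ones. The genes were taken by symbol from a list of meiotic, piRNA pathway, oocyte, spermatogonial and spermatogenesis genes. All 41 were found among the 22691 genes of the deposited table, on 16 of its 19 autosomes, and all 41 had a value in both genotypes, as had 19836 autosomal genes in all. The fibroblasts came from female C57BL6/J fetuses at stage E13.5. The first group, called MD1 here, was homozygous for the MD1 allele of Smchd1 (Smchd1 MD1/MD1), which the series describes as a SmcHD1 deficiency, and the second, called WT, was Smchd1 +/+. Each genotype had 1 chromatin immunoprecipitation (ChIP) library, made with the monoclonal antibody CMA323 against H3K27me3, and 1 input library made without antibody. How many fetuses stood behind a library is not given in the sources used here. The series' title places these data in a study of how SmcHD1 takes part in maintaining X chromosome inactivation, and the autosomal genes below belong to the same 2 columns of values.

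H3K27me3 is deposited by Polycomb repressive complex 2 and marks genes that are kept off. SmcHD1 is a chromatin protein related to the SMC subunits of cohesin and condensin, known for its place on the inactive X chromosome and at some imprinted and clustered autosomal genes. Genes used only in germ cells are silent in fibroblasts. In mouse cells many of them are known to be held silent by DNA methylation of their promoters and by a variant Polycomb complex that contains E2F6, MGA and MAX, and some also carry H3K27me3. RNA was not measured in these libraries, so nothing below says which of the genes were expressed.

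The germline genes carried more H3K27me3 than most autosomal genes in both genotypes, and 1 of the 41, Sycp3, differed 2-fold between MD1 and WT. Values are log2 enrichments, so that 0 is an enrichment of 1 and a step of 1 is a doubling. The median over the 41 genes was 0.45 in MD1 (quartiles 0.041 and 1.08) and 0.40 in WT (quartiles 0.13 and 0.84), against autosomal medians of -0.90 in MD1 and -0.78 in WT. The germline genes lay above the autosomal median in 37 cases in MD1 and in 38 in WT. They lay in the highest autosomal quartile, above 0.49 in either genotype, in 19 cases in MD1 and in 17 in WT, and none lay in the lowest quartile of either. The median difference, always MD1 minus WT, was -0.023 over the germline genes (quartiles -0.17 and 0.11) and -0.27 over all autosomal genes.

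At the 2-fold limit 1 germline gene was lower in MD1 and none was higher, beside 20.4% of autosomal genes lower and 1.61% higher. At 1.5-fold, Sycp3 was still the single lower gene and Tdrkh became the single higher one, beside 34.4% of autosomal genes lower and 5.05% higher at that limit. With 1 ChIP library per genotype there was no replicate error, no test was possible, and a difference short of the limit does not show that the genotypes were alike. The absolute difference was below 0.5 at 37 of the 41 genes (90.2%) and at 55.3% of autosomal genes. The autosomal share takes in all levels, and the shares were not compared at like levels. The standard deviation of the autosomal difference was 0.835 and 0.76 in the lowest and second quartiles of WT level. It was 0.47 and 0.43 in the third and highest, which held 38 of the germline genes.

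**Figure D1:**
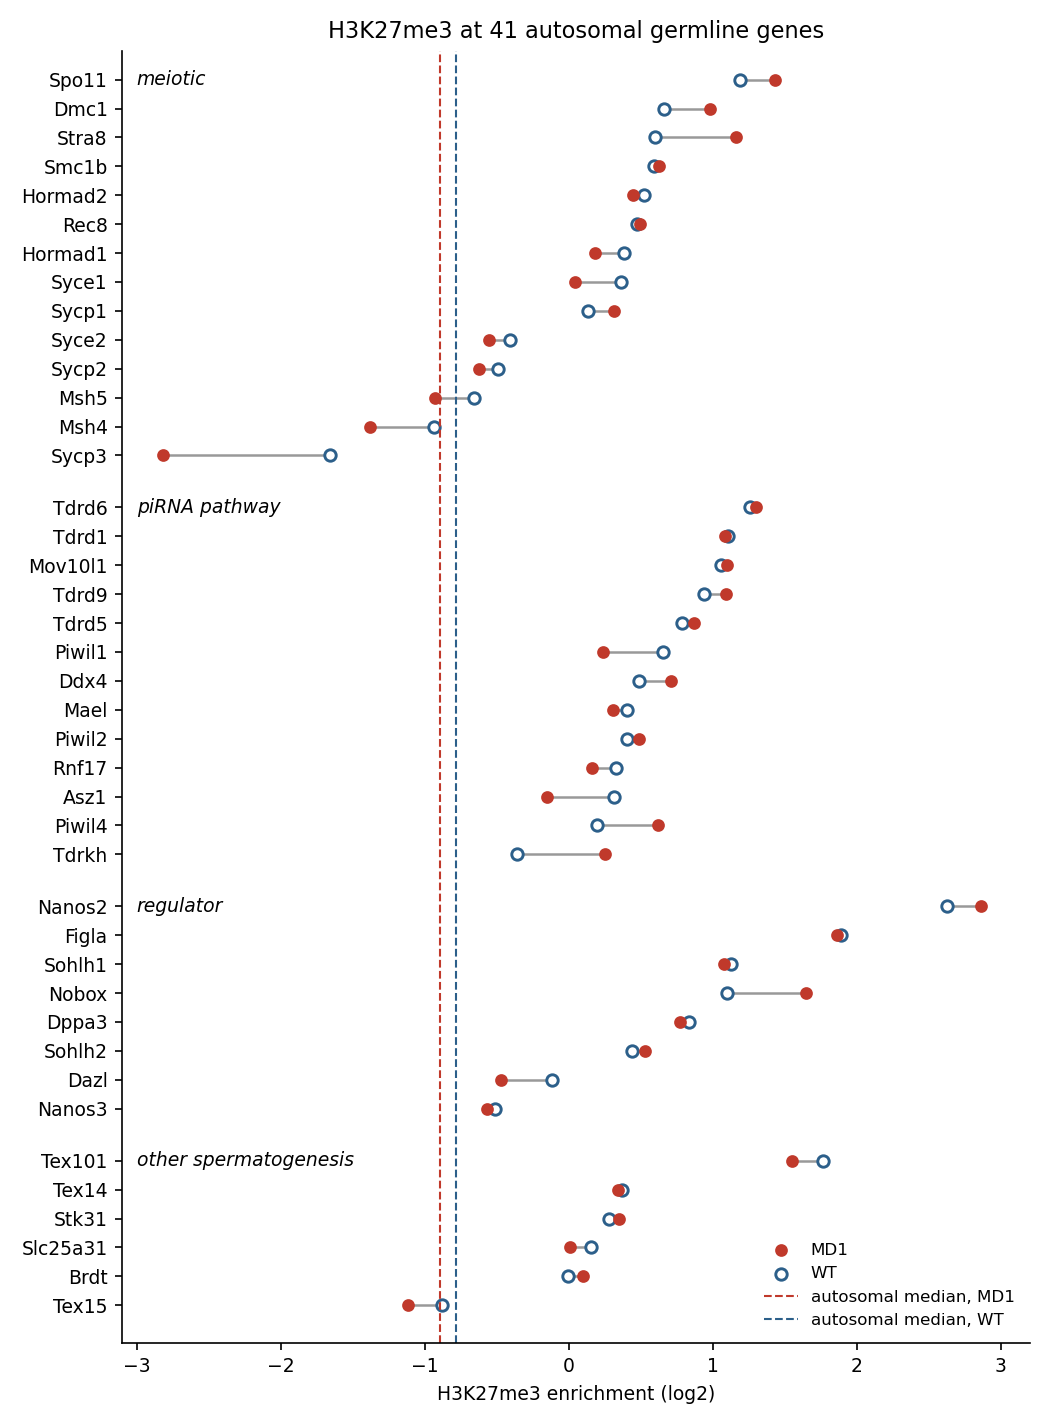
H3K27me3 enrichment (log2, horizontal axis) of each of the 41 germline genes in MD1 (filled red) and WT (open blue), grouped by role and ordered by the WT value, with the autosomal medians of -0.90 in MD1 and -0.78 in WT as dashed lines. Nanos2 stands highest in both genotypes, at 2.86 in MD1 and 2.63 in WT, and the widest gap is that of Sycp3, at -2.82 in MD1 and -1.66 in WT.

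Meiotic genes spanned the widest range downwards. The 14 genes had a median of 0.25 in MD1 and 0.38 in WT, with a median difference of -0.10, and 5 stood in the highest autosomal quartile in each genotype. Spo11, which encodes the enzyme that makes the DNA breaks of meiotic recombination, was highest, at 1.43 in MD1 and 1.19 in WT (chromosome 2, 172805343 to 172819077, mm9). Stra8, which drives entry into meiosis in response to retinoic acid, stood at 1.16 in MD1 and 0.60 in WT. Dmc1, the meiotic strand-exchange recombinase, stood at 0.98 in MD1 and 0.66 in WT. The differences of these 3 genes, 0.24, 0.57 and 0.32, were all positive and all short of the limit.

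The meiotic cohesin and HORMA-domain genes lay between 0.18 and 0.63 in both genotypes. Smc1b, a meiotic cohesin subunit, stood at 0.63 in MD1 and 0.59 in WT. Rec8, the meiotic kleisin that closes the cohesin ring, stood at 0.49 in MD1 and 0.47 in WT. Hormad2, a HORMA-domain protein of unsynapsed axes, had 0.45 in MD1 and 0.52 in WT, and its relative Hormad1 had 0.18 in MD1 and 0.39 in WT. The 4 differences lay between -0.20 and 0.036.

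The genes of the synaptonemal complex, the protein zipper between paired chromosomes, had values on both sides of 0. All but Sycp3, described below, lay above the autosomal median in both genotypes. Sycp1, its transverse filament, stood at 0.32 in MD1 and 0.13 in WT, and Syce1 of the central element at 0.041 in MD1 and 0.37 in WT. Syce2, also of the central element, had -0.55 in MD1 and -0.41 in WT, and Sycp2 of the lateral element -0.62 in MD1 and -0.49 in WT. Syce2 shares 1060 bp (6.91% of its length) with Gcdh, which stood at -1.27 in MD1 and -1.57 in WT.

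Sycp3, the other lateral element protein, was the lowest of all 41 genes and the one past 2-fold. It stood at -2.82 in MD1 and -1.66 in WT, a difference of -1.16, or a 2.24-fold lower enrichment in MD1 (chromosome 10, 87922332 to 87935981, mm9). It thus lay at percentile 27 of autosomal genes in MD1 and 35.6 in WT. Of the 41 it was 1 of 3 in the second autosomal quartile of WT level, where 19.4% of autosomal genes passed the 2-fold limit downwards and 1.84% upwards. Once the median of the 500 autosomal genes closest to it in level, within its length quartile, was subtracted, its difference was -0.56, short of the limit, with a standard deviation (SD) of 0.52 among those genes. It overlaps Chpt1, a phospholipid synthesis gene, by 424 bp (3.11% of its length), and Chpt1 stood at -1.90 in MD1 and -1.19 in WT. The neighbour on the other side, Gnptab, had nearly the values of Sycp3, at -2.78 in MD1 and -1.63 in WT.

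Msh4 and Msh5, whose proteins pair to stabilise crossover intermediates, were the other low meiotic genes. Msh4 had -1.38 in MD1 and -0.93 in WT, and Msh5 had -0.93 in MD1 and -0.66 in WT. Their differences were -0.45 and -0.27, against a median of -0.46 over autosomal genes in the second quartile of WT level, where Msh4 lay, and -0.089 in the third, where Msh5 lay.

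The piRNA pathway guides small RNAs against transposons in the male germline, and its genes lay in a narrow range, from -0.15 to 1.30 in MD1 and from -0.36 to 1.26 in WT. Of the 13, all lay above the autosomal median in both genotypes, and 7 in MD1 and 6 in WT lay in the highest quartile. The median was 0.62 in MD1 and 0.49 in WT, with a median difference of 0.046 and a range from -0.47 to 0.61. None was past 2-fold in either direction.

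Of the 6 Tudor domain genes, whose proteins bind methylated arginines of PIWI proteins and help build germ granules, 4 were among the highest of the 13 and the other two, Tdrkh and Rnf17, among the lowest. Tdrd6 stood at 1.30 in MD1 and 1.26 in WT (chromosome 17, 43752284 to 43767248, mm9), and Tdrd1 at 1.08 in MD1 and 1.10 in WT. Tdrd9, which is also a helicase, had 1.09 in MD1 and 0.94 in WT, and Tdrd5 had 0.87 in MD1 and 0.79 in WT. Mov10l1, the helicase that feeds piRNA precursors into processing, was as high, at 1.10 in MD1 and 1.06 in WT. The 5 differences lay between -0.018 and 0.15, and both values of all 5 genes lay in the highest autosomal quartile. The whole of Rd3l lies inside Tdrd9 and had 1.75 in MD1 and 1.27 in WT.

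The PIWI genes had differences of both signs. Piwil4 (MIWI2), which acts in the nucleus of fetal male germ cells, had 0.62 in MD1 and 0.20 in WT. Piwil2 (MILI), which is needed for piRNA amplification, had 0.49 in MD1 and 0.40 in WT. Piwil1 (MIWI), which acts later in spermatogenesis, had 0.24 in MD1 and 0.65 in WT. The differences were 0.42, 0.086 and -0.41, and each was short of 1.5-fold.

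The remaining piRNA pathway genes included the largest positive difference of the 41. Tdrkh, a mitochondrial Tudor protein needed for trimming piRNA ends, stood at 0.25 in MD1 and -0.36 in WT, a difference of 0.61 or 1.53-fold (chromosome 3, 94217240 to 94235421, mm9). Set against like autosomal genes this became 0.68 with an SD of 0.31, and Tdrkh was the 1 gene of the 41 more than 2 such SDs away, beside 5.09% of autosomal genes, a share that 1 of 41 does not exceed. Asz1, a mitochondrial scaffold of the pathway, had the most negative difference here, -0.47, with -0.15 in MD1 and 0.31 in WT. Ddx4, the mouse Vasa helicase, had 0.71 in MD1 and 0.49 in WT. Mael, a germ granule protein, had 0.31 in MD1 and 0.40 in WT, and Rnf17, a Tudor and RING finger protein, had 0.16 in MD1 and 0.33 in WT.

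The regulators of oocytes and spermatogonia held the most heavily marked genes of the 41. Their median was 0.93 in MD1 and 0.97 in WT over 8 genes, with a median difference of -0.038, and 6 in MD1 and 5 in WT stood in the highest autosomal quartile. Nanos2, an RNA-binding protein that maintains male germ cells, had 2.86 in MD1 and 2.63 in WT (chromosome 7, 19572873 to 19574311, mm9), at percentile 99.5 of autosomal genes in MD1 and 99.2 in WT. Figla, the oocyte transcription factor that activates zona pellucida genes, had 1.86 in MD1 and 1.89 in WT, at percentile 94.6 in MD1 and 96.0 in WT. Nobox, an oocyte homeobox protein, had 1.65 in MD1 and 1.10 in WT, the largest difference of this class, 0.55. Set against like autosomal genes this difference became 0.44, with an SD of 0.55.

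Of the other regulators Dazl had the largest difference, -0.35. Sohlh1, a bHLH transcription factor of early oocytes and spermatogonia, had 1.08 in MD1 and 1.12 in WT, and its partner Sohlh2 had 0.53 in MD1 and 0.44 in WT. Dppa3, which protects the maternal genome from demethylation in the zygote, had 0.78 in MD1 and 0.84 in WT. Dazl, an RNA-binding protein of germ cell commitment, and Nanos3, needed for survival of primordial germ cells, were the 2 lowest. Dazl had -0.47 in MD1 and -0.12 in WT, and Nanos3 had -0.57 in MD1 and -0.51 in WT.

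Several of the highest values belonged to short genes. The regulators had a median length of 4.05 kb, against 48.3 kb for the piRNA pathway genes and 23.3 kb for the meiotic genes, and the deposited value is 1 number per gene. Nanos2 is the shortest of the 41, at 1439 bp, and its values correspond to ratios of 52 to 7 in MD1 and 6 to 1 in WT in lowest terms. The read counts behind such a ratio may be any multiple of its terms. The part of length in the order of the classes was not tested.

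The 6 other spermatogenesis genes had a median of 0.22 in both genotypes and a median difference of -0.082. Tex101, a surface protein of male germ cells, stood out with 1.55 in MD1 and 1.76 in WT. Tex15, which acts in meiotic repair and in transposon silencing, was lowest with -1.12 in MD1 and -0.88 in WT. Between them lay Tex14, a protein of the bridges between germ cells (0.34 in MD1, 0.37 in WT), Stk31, a Tudor domain protein with a kinase-like region (0.35 in MD1, 0.28 in WT), Slc25a31, the germ cell ADP/ATP carrier (0.012 in MD1, 0.15 in WT), and Brdt, the testis bromodomain protein (0.10 in MD1, -0.0046 in WT). No gene of the 6 differed by more than 0.24.

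Across the autosomes the difference depended on the level, and the germline genes lay where it was small. MD1 values were more widely spread: regressed on WT they had a slope of 1.18 over the germline genes and 1.25 over autosomal genes. In the third quartile of WT level, which held 21 germline genes, the median difference was -0.057 over the germline genes and -0.089 over autosomal genes. In the highest quartile, with 17 germline genes, it was 0.038 over germline genes and 0.034 over autosomal genes. None of these 38 germline genes was past 2-fold. In the same quartiles 2.92% and 2.36% of autosomal genes were at least 2-fold lower and 1.79% and 0.908% higher, so a count of 0 among 38 is near that background.

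The scatter of the differences was described by its SD. In the third quartile the SD of the difference was 0.26 over germline genes and 0.47 over autosomal genes, and in the highest quartile it was 0.25 and 0.43. With the median of such level-matched genes subtracted, the germline genes had a median difference of -0.040, with a range from -0.56 to 0.68, and none was past 2-fold, beside 3.41% of autosomal genes lower and 3.16% higher by this measure. At 6 of the 41 the difference exceeded 1 SD of the like genes, beside 28.4% of autosomal genes, so that no excess was seen. Over the 41 genes, which share the same pair of libraries, MD1 and WT values correlated with r = 0.96, beside 0.95 over all autosomal genes.

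**Figure D2:**
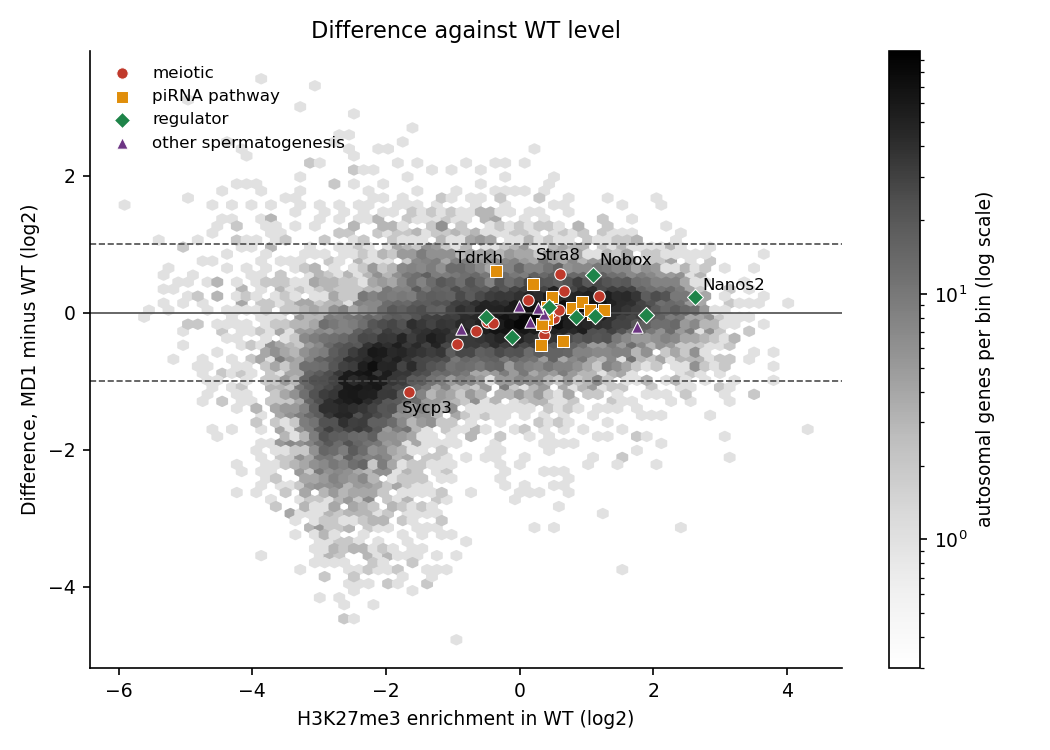
Difference of MD1 minus WT (log2, vertical axis) against the WT enrichment (log2, horizontal axis) for 19836 autosomal genes (grey, darker for more genes per bin on a log scale) and the 41 germline genes by role, with dashed lines at the 2-fold limits. Germline genes lie around 0 at WT levels where most autosomal genes do too, and Sycp3 lies at the edge of the cloud of poorly marked genes, where most differences are negative.

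Other genes of the same pathways also had medians above the autosomal ones. In each class these medians were lower than those of the germline genes above, in both genotypes. A second set of 18 meiotic genes with values, among them Mei1, Meiob and Stag3, had a median of 0.0023 in MD1 and -0.0058 in WT and a median difference of -0.0046, with none past 2-fold. Of these, Trip13, a meiotic checkpoint ATPase also used in mitosis, had the largest difference, -0.59, with -2.79 in MD1 and -2.204 in WT. Its level-matched difference was 0.23. By that measure 1 of the 18 genes was past 2-fold, upwards, beside 3.16% of autosomal genes higher and 3.41% lower. This was Psmc3ip, which overlaps Mlx and had -3.325 in MD1 and -3.442 in WT. Its level-matched difference was 1.38, with an SD of 1.15 among like genes. A second set of 13 piRNA pathway genes had a median of 0.38 in MD1 and 0.40 in WT, and none was past 2-fold. Its largest difference was that of Mybl1, the transcription factor of pachytene piRNA genes, which had -3.20 in MD1 and -2.28 in WT.

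A second set of 19 germ cell regulators had a median of 0.67 in MD1 and 0.48 in WT, of which 3 were lower in MD1 by 2-fold or more and none was higher, beside the 20.4% and 1.61% of autosomal genes. Zglp1, an inducer of oogenesis, had -4.73 in MD1 and -2.18 in WT. Dnd1, an RNA-binding protein of germ cell survival, had -4.49 in MD1 and -2.13 in WT, and Taf4b, a germ cell TFIID subunit, had -2.29 in MD1 and -1.26 in WT. All 3 were low in WT already, and the MD1 ratios of Zglp1 and Dnd1 reduced to 1 to 26 and 1 to 22, which may rest on a single ChIP read each. After level matching 2 of the 19 stayed at least 2-fold lower, beside 3.41% of autosomal genes. These were Zglp1, at -1.29 with an SD of 1.16 among like genes, and Dnd1, at -1.12 with an SD of 1.17. Dnd1 overlaps Wdr55.

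Among 17 genes of sperm and egg structure with values, the median was 0.56 in MD1 and 0.67 in WT. Tssk6, a spermatid kinase gene, was the gene past 2-fold, at -1.84 in MD1 and -4.13 in WT, with ratios of 2 to 7 and 1 to 18 in lowest terms and an overlap with Ndufa13. Its WT ratio may rest on a single ChIP read. Thus 1 of the 17 (5.88%) was higher in MD1 and none lower, beside 1.61% of autosomal genes higher and 20.4% lower. Of the 22 genes in that list, 5 had no value in either genotype, the protamine genes Prm1, Prm2 and Prm3 and the transition protein genes Tnp1 and Tnp2.

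Relatives of the germline genes, listed here as somatic paralogs, had low values. A list of 19 such autosomal genes had a median of -3.43 in MD1 and -2.29 in WT, and 8 of them passed the 2-fold limit, all downwards. In the lowest quartile of WT level 56.9% of autosomal genes did so and 1.92% passed it upwards. After level matching 1 of the 19 was past the limit, downwards, beside 3.41% of autosomal genes lower and 3.16% higher. This was Ddx5, described below, at -2.47 with an SD of 0.78 among like genes. The 10 protein families compared were chosen after the values were seen, and held 20 of the 41 germline genes and 18 relatives. In all 10, every germline gene lay above every relative, in MD1 and in WT. Sycp3, the lowest of the 41, was in none of them. Within cohesin, Rec8 and Smc1b lay at 0.49 and 0.63 in MD1 and 0.47 and 0.59 in WT, while Rad21, Smc3 and Stag1 lay from -4.24 to -3.43 in MD1 and from -2.79 to -2.36 in WT. Brdt lay near 0, while Brd2 and Brd3 lay from -4.24 to -3.56 in MD1 and from -3.59 to -2.29 in WT. The 3 PIWI genes lay from 0.24 to 0.62 in MD1 and from 0.20 to 0.65 in WT, and Ago4, the highest of 4 Argonaute genes, lay at -0.18 in MD1 and -0.15 in WT.

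The closest approach was in the MutS family of mismatch repair. Msh4 and Msh5 lay from -1.38 to -0.93 in MD1 and from -0.93 to -0.66 in WT, and Msh3 and Msh6 from -3.97 to -1.55 in MD1 and from -2.19 to -1.28 in WT. The widest was between Ddx4 and Ddx5 in MD1, but Ddx5, at -6.83 in MD1 and -2.69 in WT, had an MD1 ratio that reduced to 1 to 111 and may rest on a single ChIP read.

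The germline genes also lay below the classical Polycomb targets. For 30 developmental transcription factor genes the median was 2.18 in MD1 and 2.27 in WT, and all of them in MD1, and all but 1 in WT, were in the highest autosomal quartile. Of the 30, 1 (3.33%) was past 2-fold, Barhl2, at 1.98 in MD1 and 3.02 in WT, beside 20.4% of autosomal genes lower and 1.61% higher. In the highest quartile of WT level these shares were 2.36% and 0.908%, so a count of 1 is near that background. Barhl2 stayed past the limit after level matching, at -1.14 with an SD of 0.54. Nanos2 was the single germline gene above the transcription factor medians of both genotypes. At the other end, 18 genes used in fibroblasts, such as Col1a1 and Vim, had a median of -4.06 in MD1 and -2.88 in WT, with none above the autosomal median in either genotype and 9 at least 2-fold lower in MD1. That count too is read against the 56.9% of lowest-quartile genes. After level matching none of the 18 was 2-fold lower and 2 were higher, beside 3.41% of autosomal genes lower and 3.16% higher. These were Postn, at 1.35 with an SD of 0.37 among like genes, and Pdgfrb, at 1.11 with an SD of 0.38. Before matching their differences were 0.85 and 0.10. Markers of the labelled cell type were thus poorly marked, and their expression was not measured.

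**Figure D3:**
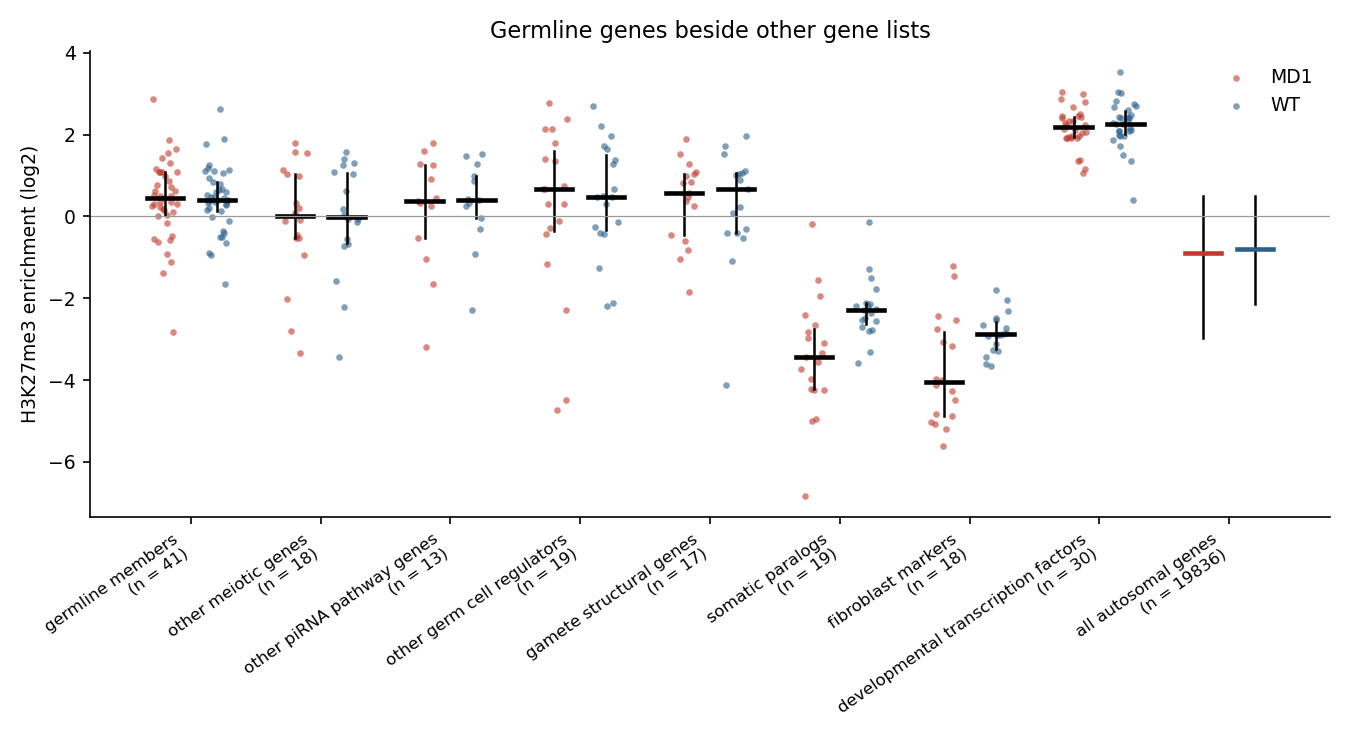
H3K27me3 enrichment (log2, vertical axis) in MD1 (red, left in each pair) and WT (blue, right) for the 41 germline genes, 4 further germline lists, somatic paralogs, fibroblast markers, developmental transcription factors and all autosomal genes. Points are genes, thick bars medians and thin lines quartiles. The germline lists have medians from 0.0023 to 0.67 in MD1 and from -0.0058 to 0.67 in WT, above the autosomal medians of -0.90 in MD1 and -0.78 in WT and below the transcription factor medians of 2.18 and 2.27.

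Most germline genes had higher values than their chromosomal neighbours, about as often as other autosomal genes of above-median level. For each gene the 5 nearest genes with values on each side were taken, leaving out other members. The germline gene lay above the median of its 10 neighbours in 34 of 41 cases in MD1 and in 36 in WT, and at least 2-fold above it in 21 cases in each genotype. The median of the neighbour medians was -0.89 in MD1 and -0.64 in WT, and that of the gaps 1.01 in MD1 and 1.03 in WT. Nanos2, Figla, Nobox, Rec8 and Tdrd6 lay above all 10 neighbours in both genotypes, and Stra8 did so in MD1.

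The same measures were taken for 19646 autosomal genes with 5 compared genes on each side. The germline gene lay above the median of its neighbours in 82.9% of cases in MD1 and 87.8% in WT, against 84.8% in MD1 and 84.2% in WT of those autosomal genes that were above the autosomal median of their genotype. It lay at least 2-fold above it in 51.2% of cases in each genotype, against 55.1% in MD1 and 51.2% in WT of these autosomal genes. It lay above all 10 neighbours in 14.6% of cases in MD1 and 12.2% in WT, against 17.4% of these autosomal genes in each genotype. The germline genes thus did not exceed other genes of above-median level in these counts, except by a few points above the neighbour median in WT.

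Some germline genes had poorly marked neighbours. Dmc1 had neighbours with a median of -3.09 in MD1 and -2.57 in WT, and Ddx17 beside it stood at -4.05 in MD1 and -2.64 in WT. Rec8 lies in a dense stretch where its 10 neighbours span 93.4 kb and had a median of -3.52 in MD1 and -2.07 in WT. Tdrd5 had a neighbour median of -3.22 in MD1 and -2.18 in WT. In these 3 places the neighbours had more negative differences, with medians of -0.48, -0.84 and -1.19, than the germline genes, with 0.32, 0.018 and 0.077.

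Tdrkh and Msh4 lay the other way, with neighbour medians of 0.69 and 0.0062 in MD1 and 0.77 and 0.26 in WT. Oaz3, next to Tdrkh, stood at 0.54 in MD1 and 0.80 in WT. The neighbours of Sycp3 had a median difference of -0.93, close to its own -1.16. Over all 41 places the neighbour median of the difference was negative in 35, and that of the germline gene was above it in 31 (75.6%). Among autosomal genes above the median level this was so for 76.4% when levels were taken in MD1 and 72.1% when taken in WT.

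**Figure D4:**
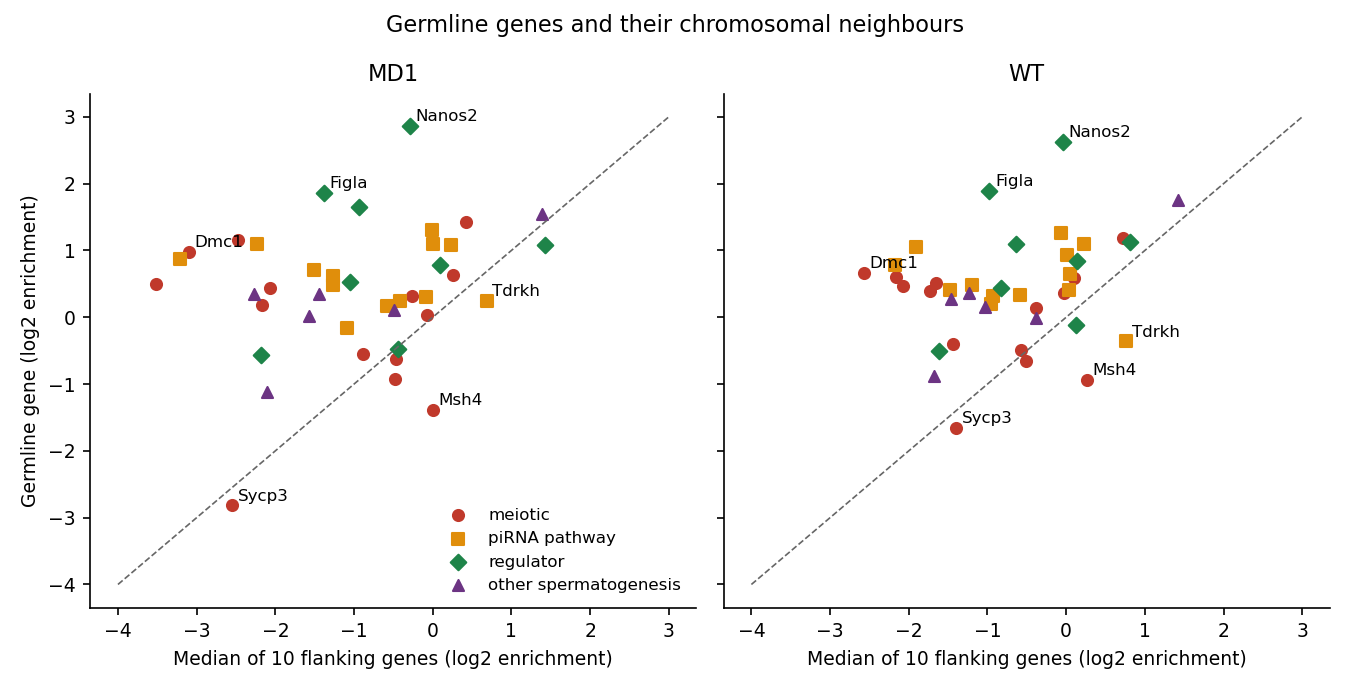
Enrichment of each germline gene (log2, vertical axis) against the median of its 10 flanking genes (log2, horizontal axis) in MD1 (left) and WT (right), with the line of equal values dashed. Points lie above the line for 34 of 41 genes in MD1 and 36 in WT; Tdrkh and Msh4 are below it in both.

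The promoters of the germline genes were compared by sequence. RefSeq promoter sequences of GRCm38.p6, 250 bases before to 50 after the gene start, were found for 35 of the 41 genes; Spo11, Dppa3, Piwil2, Rnf17, Tdrd6 and Tex15 had no entry. The letters CACGTG, the E-box bound by MAX and its partners, were found in 14 of the 35 (40.0%) and in 9.80% of 15499 autosomal genes with values and a promoter, and in 7.14% of all autosomal promoters in the set. The word reads the same on both strands. It was found in 6 of 10 piRNA pathway genes, 4 of 13 meiotic genes, 3 of 5 other spermatogenesis genes and 1 of 7 regulators. The letters TCCCGC, a core of E2F sites, were searched on both strands and found in 13 of 35 (37.1%), against 31.2% of autosomal genes and 20.2% of all autosomal promoters. They were found in 8 meiotic, 3 piRNA pathway and 2 other spermatogenesis genes and in none of the 7 regulators. Both words occurred together in 7 of the 35, against 3.95% of autosomal genes. A gene was counted if any of its promoters held the word. The shares of 7.14% and 20.2% count single promoters, so they are not on the same footing as the shares of genes. The 2 words can share at most 1 base, and a match is a run of letters, not a measured site.

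The E-box stretches of the piRNA pathway genes and 3 synaptonemal complex or axis genes are shown because this word was found in 14 germline promoters. Where a promoter held several, the one nearest the gene start is given. Each line gives 20 bases on either side where the promoter allows, 5′ to 3′ on the gene's strand, with CACGTG in capitals. In the order shown they lie at chr13:112652314-112652359 (minus strand), chr1:166238942-166238987 (minus), chr15:88982744-88982773 (plus), chr5:128736072-128736117 (plus), chr19:56826178-56826223 (plus), chr12:111971444-111971489 (plus), chr3:102936169-102936214 (minus), chr8:84872150-84872195 (plus) and chr3:95559637-95559682 (plus) of GRCm38.p6.
Ddx4: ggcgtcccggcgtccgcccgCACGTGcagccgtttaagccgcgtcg
Mael: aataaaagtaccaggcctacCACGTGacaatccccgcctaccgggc
Mov10l1: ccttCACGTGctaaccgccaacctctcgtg
Piwil1: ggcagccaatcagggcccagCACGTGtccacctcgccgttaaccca
Tdrd1: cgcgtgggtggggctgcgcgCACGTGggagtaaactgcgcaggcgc
Tdrd9: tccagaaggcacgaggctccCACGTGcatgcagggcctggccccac
Sycp1: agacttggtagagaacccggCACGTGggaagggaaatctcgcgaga
Syce2: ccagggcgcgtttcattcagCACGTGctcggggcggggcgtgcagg
Hormad1: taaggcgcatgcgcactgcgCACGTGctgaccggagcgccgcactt

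The genes at the 2 ends of the range had unlike promoters, shown here whole. That of Sycp3, the lowest gene (chr10:88459337-88459636, plus strand, GRCm38.p6), holds 2 copies of CACGTG and has TCCCGC once on the opposite strand, all in capitals. That of Nanos2, the highest gene (chr7:18987274-18987573, plus strand), holds neither and no CG at all.
Sycp3: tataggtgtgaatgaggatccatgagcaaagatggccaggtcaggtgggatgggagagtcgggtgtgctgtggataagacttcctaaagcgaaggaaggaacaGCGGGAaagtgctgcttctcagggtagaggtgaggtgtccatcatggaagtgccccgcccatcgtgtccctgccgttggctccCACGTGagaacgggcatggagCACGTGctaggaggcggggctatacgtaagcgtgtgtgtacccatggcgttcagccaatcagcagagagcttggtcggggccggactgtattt
Nanos2: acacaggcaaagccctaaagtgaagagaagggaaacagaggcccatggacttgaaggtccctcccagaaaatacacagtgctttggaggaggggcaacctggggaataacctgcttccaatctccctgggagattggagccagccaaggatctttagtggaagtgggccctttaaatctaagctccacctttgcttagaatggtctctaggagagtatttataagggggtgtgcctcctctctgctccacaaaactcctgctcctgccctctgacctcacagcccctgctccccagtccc

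The H3K27me3 levels of germline genes with and without the E-box overlapped. The 14 genes with it had a median of 0.31 in MD1 and 0.40 in WT, with a range in WT from -1.66 to 1.12, and the 21 without it had 0.49 in MD1 and 0.44 in WT, with a range in WT from -0.93 to 2.63. Their median differences were -0.033 and -0.023. Over all autosomal genes, those with the E-box had lower medians, -1.95 in MD1 and -1.53 in WT, than those without it, -0.91 in MD1 and -0.80 in WT.

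The gap in medians between germline and autosomal genes was wider where promoters were CpG-rich. CpG content was taken as the observed number of CG over the number expected from C and G, using the richest promoter of a gene, and its median was 0.69 over germline genes and 0.67 over autosomal genes. In the upper range, above that autosomal median, the 19 germline genes had a median of 0.32 in MD1 and 0.37 in WT, and the 7747 autosomal genes had -2.56 in MD1 and -1.90 in WT. An enrichment above 0 was found at 15 of the 19 in MD1 (78.9%) and 14 in WT (73.7%), against 17.0% in MD1 and 17.5% in WT of autosomal genes. In the lower range the 16 germline genes had a median of 0.58 in MD1 and 0.56 in WT, and the 7752 autosomal genes -0.043 in MD1 and 0.034 in WT. These figures describe genes of 1 pair of libraries and carry no test.

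**Figure D5:**
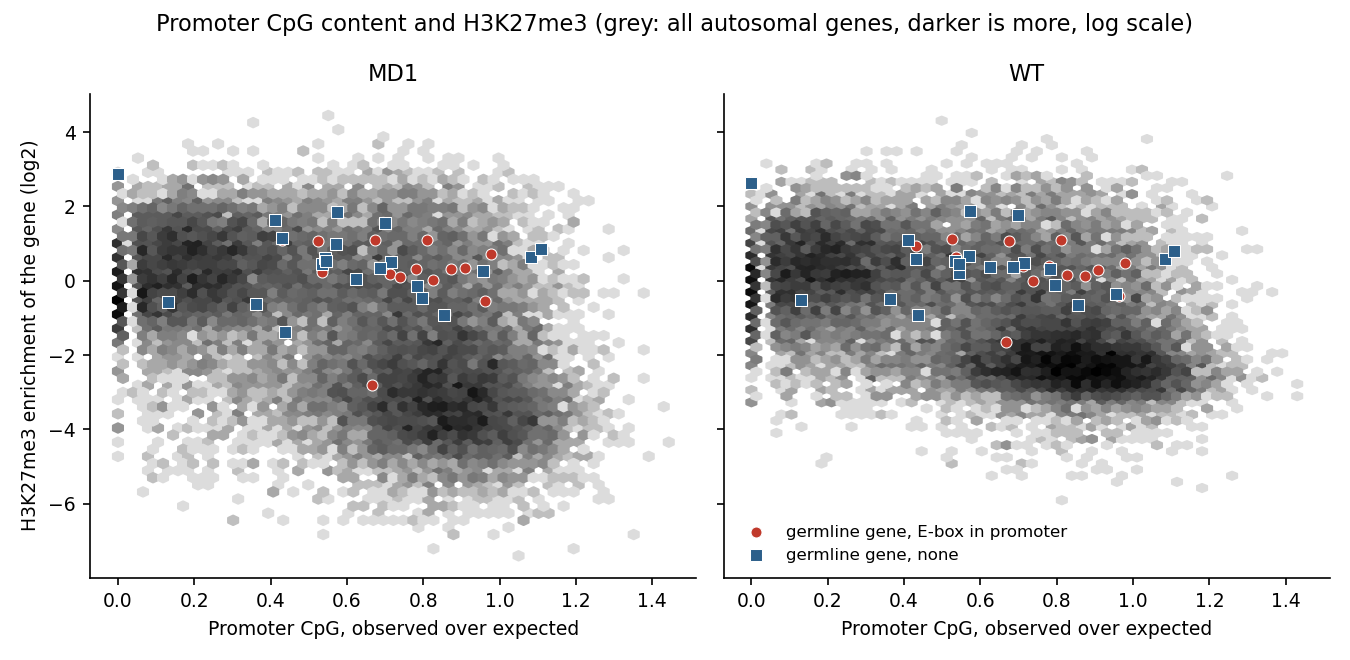
Enrichment of each gene (log2, vertical axis) against the CpG content of its promoter (observed over expected, horizontal axis) in MD1 (left) and WT (right) for autosomal genes (grey, darker for more genes on a log scale) and 35 germline genes with (red circles) or without (blue squares) CACGTG in the promoter. Above the median CpG content autosomal genes have medians of -2.56 in MD1 and -1.90 in WT, while 15 of 19 germline genes in MD1 and 14 in WT lie above 0.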

How the data were processed

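H3K27me3 ChIP-seq values of MD1 and WT fibroblasts were taken from the authors' deposited table of log2 enrichments, 1 value per gene and genotype. The submitters' processing notes name the build mm9; the sources used here do not give the aligner, the counting window, any filter or the denominator. At a relative tolerance of 1e-12, 99.95% of deposited values in MD1 and 99.98% in WT could be written as 2 whole numbers up to 20000, divided and scaled by 1 constant per genotype, the form that ChIP over input counts would have. These ratios are quoted in lowest terms. Depth is unknown, so no counting interval is given. Differences are MD1 minus WT, called at 2-fold. The level-matched difference subtracts the median over 500 autosomal genes of the same length quartile whose mean levels were closest. Symbols were matched to RefSeq promoters through current names and synonyms, for 80.4% of autosomal genes with values outside chromosome 18, whose promoters were not used here. Work was done in Python 3.11.15 with pandas 2.3.3 and numpy 2.4.6, and was tested on simulated data. The members and lists were chosen with earlier results of these data known, and the 10 families, the split by WT quartile, the split by CpG content and the neighbour counts of other autosomal genes after the values were seen. All 41 members are reported. Of the other lists, genes with the largest absolute differences were named. Mei1, Meiob, Stag3, Col1a1, Vim and the relatives in the families were added as examples. Psmc3ip, Postn and Pdgfrb were added as genes past 2-fold after level matching. Some relatives are not reported here. No sample was left out, and no test was possible with 1 library per kind.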

Additional observations from a re-analysis of the deposited data

How the results depend on the processing

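No paired analysis was possible because each genotype had 1 ChIP and 1 input library. The single germline gene at least 2-fold lower in MD1, Sycp3, was the count of 1; it was 0 with a pseudocount of 1 added to the ratio, with centring on the autosomal median, with the level-matched difference, without genes that overlap another listed gene (which leaves out Sycp3), and at a 3-fold limit. The count of higher genes, 0, became 1 at a 1.5-fold limit. Centring moved the median difference of the germline genes to 0.25, and that of the meiotic genes to 0.17, the piRNA pathway genes to 0.32, the regulators to 0.23 and the other spermatogenesis genes to 0.19, so the sign of all of these but the piRNA pathway genes turned; the shift is the autosomal median itself. Under centring 35 of the 41 differences were positive, against 19 as reported. The autosomal median difference was 0 when centred, -0.082 with a pseudocount of 1, -0.0027 level-matched, -0.10 among genes at or above the 25th percentile of mean level, and -0.42 as a mean. A pseudocount of 1 changed the median levels to 1.24 in MD1 and 1.22 in WT by its construction. Without the shortest length quartile, and with denominators of at least 20, the MD1 median was 0.33. All other medians of the germline genes and their 4 classes moved by less than 0.1 on the log2 scale under the alternatives run. Of these, the piRNA pathway median turned to -0.040 when level-matched and the regulators' mean difference was 0.041. The limit on mean level named above removed none of the 41 genes, so it could not move their medians and was no test of them. Leaving out overlapping genes likewise removed no regulator and no other spermatogenesis gene. Without the shortest length quartile only 2 of the 8 regulators were left, with a median difference of -0.13, too few to test their median. Depth is unknown, and ratios in lowest terms do not give the read counts behind a value.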
